A study of Homo sapiens with 12 samples.

Results

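The locus described here is a stretch of chromosome 13 in the hg19 build, 73100000 to 75000000, which holds KLF5 (about 73629000 to 73651700) and KLF12 (about 74260000 to 74570000). It was read in maps of H3K27ac, acetylation of lysine 27 on histone H3, a mark of active promoters and enhancers. Members are the H3K27ac peaks of 8 peak lists that overlap this window, 132 peaks that merge into 67 regions out of 70648 in the genome. The 8 lists come from 5 human cancer cell lines: H358 and H2009 (lung adenocarcinoma, 2 libraries each), HCC95 (squamous cell lung carcinoma, 1 library), Ishikawa (endometrial carcinoma, 2 libraries) and BICR31 (1 library). The design text of the series gives BICR31 as head and neck squamous, while its sample label says lung adenocarcinoma; the design text was followed. All were grown in serum-supplemented RPMI medium with no treatment stated, and chromatin was precipitated with the same antibody. A cell line is a single tumour's descendants in culture, so each stands for itself and not for a tumour type.

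KLF5 and KLF12 encode Krüppel-like factors, proteins whose C-terminal zinc fingers bind GC boxes and CACCC boxes in DNA. KLF5 is an activator best known from the proliferating basal cells of lining epithelia, such as gut crypts and squamous epithelium. KLF12 was first described as a repressor of the gene for the transcription factor AP-2 alpha. Genes of this kind are often controlled by enhancers far from the gene, in stretches that hold no other protein-coding gene. In the RefSeq table at hand, on the GRCh38.p14 build, 11 annotated genes lie between KLF5 and KLF12, namely 5 long noncoding RNAs, 6 pseudogenes and 0 protein-coding genes. The study is known for enhancers in gained noncoding DNA near KLF5, so the question asked here was which lines carry peaks 3′ of the gene and which carry them at the gene itself. Copy number is not part of a peak list and was not analysed here.

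RefSeq lists 2 starts for KLF5 and 4 for KLF12 on GRCh38.p14. Their positions were not converted to hg19, and distances from the KLF5 start below are taken from the rounded hg19 position 73629000, which corresponds to the outer start by the extent of the gene. The 250 bases before 3 of the starts are shown because the peaks described below lie close to the second KLF5 start and the second KLF12 start, by distance, and not to the first KLF5 start. Capitals mark GC boxes (GGGCGG, read on both strands).

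KLF5 start 1, GRCh38.p14 chr13:73054726-73054975, plus strand: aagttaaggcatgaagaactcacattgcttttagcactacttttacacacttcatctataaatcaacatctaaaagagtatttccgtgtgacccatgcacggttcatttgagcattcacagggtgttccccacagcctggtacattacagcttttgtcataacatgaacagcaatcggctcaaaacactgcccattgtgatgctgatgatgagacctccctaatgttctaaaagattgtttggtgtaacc
KLF5 start 2, GRCh38.p14 chr13:73058755-73059004, plus strand: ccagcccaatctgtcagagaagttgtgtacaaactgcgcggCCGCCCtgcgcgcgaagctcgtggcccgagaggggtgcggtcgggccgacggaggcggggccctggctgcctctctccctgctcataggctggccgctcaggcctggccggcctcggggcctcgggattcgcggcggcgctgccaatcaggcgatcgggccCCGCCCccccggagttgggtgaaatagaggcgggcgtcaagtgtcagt
KLF12 start 2, GRCh38.p14 chr13:74134405-74134654, minus strand: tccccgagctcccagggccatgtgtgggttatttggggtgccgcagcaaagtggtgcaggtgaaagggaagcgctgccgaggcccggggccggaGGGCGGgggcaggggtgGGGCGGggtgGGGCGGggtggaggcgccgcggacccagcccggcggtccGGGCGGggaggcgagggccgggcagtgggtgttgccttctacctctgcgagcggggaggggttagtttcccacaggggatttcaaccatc

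The starts differ in base composition. The sequence before KLF5 start 1 is 40.8% G or C with 3 CpG pairs and 0 GC boxes. That before KLF5 start 2, which lies 4029 bp downstream in GRCh38.p14, is 70.8% G or C with 27 CpG pairs and 2 GC boxes. KLF12 start 2, 1079 kb from KLF5 start 1 in that build, has 72.0% G or C, 20 CpG pairs and 4 GC boxes. GC boxes are common letters: 42.6% of the 35116 RefSeq starts searched hold at least 1 in the same 250 bases. CACCC, on either strand, occurs 1 time before KLF5 start 1, 2 times before KLF5 start 2 and 5 times before KLF12 start 2, and in 54.7% of all starts. A match describes letters in a window and says nothing of binding.

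BICR31 had more peaks in the locus than any other list. Of the 132 peaks it had 50, HCC95 19, H358 16 and 13, Ishikawa 10 and 14, and H2009 7 and 3. As a share of each list these were 0.119% in BICR31, 0.0812% in HCC95, 0.0482% to 0.0596% in H358, 0.0410% to 0.0513% in Ishikawa and 0.0114% to 0.0260% in H2009. Called bases, the summed length of the peaks, were 56833 in BICR31, 17022 in HCC95, 19917 ± 4006 in Ishikawa, 5206.5 ± 78.5 in H358 and 1369 ± 663 in H2009 (mean ± SD, n = 2 for the last 3). BICR31 thus lay above every other library in peaks, share and called bases, and both H2009 libraries lay below all others. HCC95 and BICR31 have 1 library each and so no replicate spread, and single differences between lines were not tested. Lists also differ in form and in peak width: the median peak was 347 to 382 bp wide in the H358 and H2009 lists, 814 bp in HCC95, 893 bp in BICR31, and 1507 and 955 bp in Ishikawa. Read depth is unknown.

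**Figure D1:**
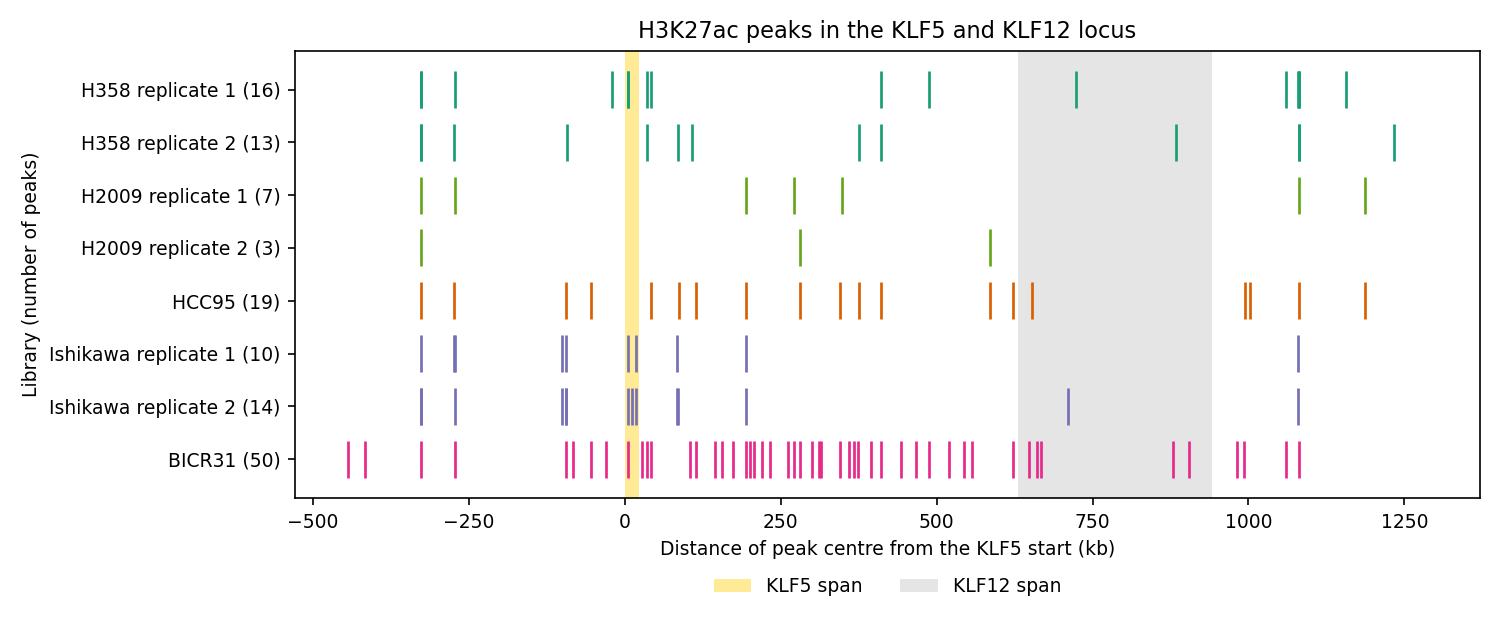
Each tick is the centre of 1 H3K27ac peak, by distance from the KLF5 start in kb (horizontal) and by library (rows, with the number of peaks); ticks are not to the width of the peaks, and shading marks the KLF5 and KLF12 spans. BICR31 has 50 peaks, 32 of them between the genes, while H2009 replicate 2 has 3 in all.

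Of the 67 regions, 31 (46.3%) had a peak in BICR31 alone, against 21.9% of all regions in the genome. HCC95 and BICR31 were the only lines with a peak at 5 regions (7.46%, genome 3.56%). A peak in all 8 lists was found at 1 region (1.49%, genome 12.1%), and 43 regions (64.2%, genome 47.7%) had a peak in just 1 list. The BICR31 list is the longest, with 42148 peaks against 23400 in the shortest, HCC95. With every list held to 23400 peaks by fold enrichment, the authors' value for a peak over local background, 8 of 38 regions (21.1%) were found in BICR31 alone, against 11.0% of all regions. With the lists ranked by −log10 q instead, a choice made after the first result was seen, they were 11 of 40 (27.5%, genome 9.45%). The count thus fell with list length, and the share stayed above that of the genome in both settings. Neighbouring regions are not independent, so these shares describe the locus and carry no test.

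Replicates overlapped more in the locus than lists of different lines did, and this rested on Ishikawa. The base-pair Jaccard index, bases called in both lists over bases called in either, was 0.566 between the Ishikawa libraries, 0.247 between the H358 libraries and 0 between the H2009 libraries. Between lines it averaged 0.0877 and ran up to 0.187, the value for HCC95 with BICR31. The mean difference of 0.183 had an exact one-sided permutation p = 0.0238 over 420 assignments of the libraries to pairs. Without the Ishikawa pair the difference was 0.0440 (exact permutation p = 0.222), and without the H358 pair 0.209 (exact permutation p = 0.133). Both libraries of each line share a list form, and no other line has the form of Ishikawa. Line and list form therefore cannot be told apart in the full difference. In the H358 and H2009 lists alone, which share a form, it was 0.0340 (exact permutation p = 0.333, the smallest possible). By regions, Ishikawa had 9 of 11 in both libraries, H358 5 of 18 and H2009 1 of 9. In that 1 region the H2009 peaks did not overlap and were joined by wider peaks of other lists. Genome-wide the same lines shared 74.8%, 58.2% and 56.1% of regions, so the lung adenocarcinoma lists were less repeatable here (27.8% and 11.1%). Whether replicates come from separate cultures is not stated. The exact permutation p of 0.0238 is the share of the 420 assignments with a difference at least as large as the observed one. It speaks only for these libraries.

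At KLF5 itself, peaks were found in Ishikawa, in BICR31 and in 1 of the H358 libraries, and in none of the lists of H2009 and HCC95. They fall in 1 region, 73632287 to 73636916, which starts 3.29 kb and ends 7.92 kb downstream of the KLF5 start and so spans the distance at which KLF5 start 2 lies in GRCh38.p14. No list had a peak within 2 kb of the first start. In Ishikawa the peak was 4630 bp wide with a score of 154 in replicate 1 and 2380 bp wide with a score of 271 in replicate 2. The score, used in these lists in place of a fold, was above that of 51.0% and 73.0% of the peaks of its own list. In BICR31 the peak was 2556 bp wide with a fold enrichment of 2.67 and a −log10 q of 3.03. Its width was above that of 98.6% of the BICR31 list and its fold above only 1.87% of it, so it was a wide and shallow peak. H358 replicate 1 had 2 narrow peaks there, 247 bp at a fold of 3.20 and 254 bp at 4.56, with summits 4.32 kb and 5.06 kb from the start. H358 replicate 2 had 0. With lists held to 23400 peaks by fold, or cut to their higher-valued 50%, the BICR31 peak and the 247 bp H358 peak were lost. Those of Ishikawa were kept in both settings, and by −log10 q the BICR31 peak was kept as well. The 254 bp H358 peak, above 25.2% of its list by fold, was lost in the cut to 50%. It was kept when that list was held by fold to 23400 of its 26866 peaks.

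Ishikawa also had peaks further inside KLF5, which no other line had. The region at 73645460 to 73648951, 16.5 to 19.95 kb from the start, was called 3492 bp wide with a score of 80.0 in replicate 1 and 1771 bp wide with a score of 194 in replicate 2. Replicate 2 alone had a further peak of 1284 bp at 73639705 to 73640988, with a score of 52.6, above 2.96% of its list. Called bases inside the KLF5 span were therefore 8122 and 5435 in Ishikawa, 2556 in BICR31, 501 and 0 in H358, and 0 in HCC95 and both H2009 libraries. Ishikawa lay above BICR31 in both replicates, and the 2 H358 libraries disagreed on whether the gene had a peak at all.

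**Figure D2:**
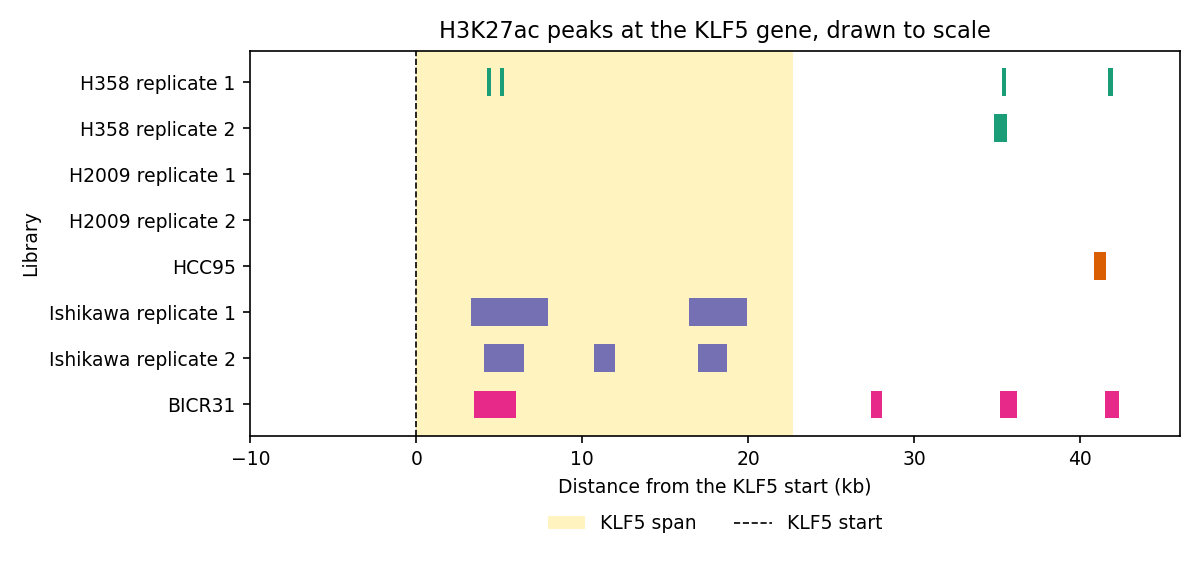
Bars are H3K27ac peaks drawn to scale, by distance from the KLF5 start in kb (horizontal) and by library (rows); the dashed line is the KLF5 start and the shaded band the KLF5 span. Ishikawa, BICR31 and H358 replicate 1 have peaks between 3.29 and 7.92 kb, and the H2009 and HCC95 rows are empty inside the gene.

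In the lists with no peak at the gene, the nearest peaks lay far off in H2009 and nearer in HCC95 and H358. Downstream of the start the first peak was 194 and 281 kb away in the H2009 libraries, 40.9 kb in HCC95 and 34.8 kb in H358 replicate 2. Upstream it was 273 and 326 kb away in H2009, 54.6 kb in HCC95 and 93.3 kb in H358 replicate 2. H2009 thus had no called peak at KLF5 or within 194 kb of its start, at the length of its lists.

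The interval between the end of KLF5 and the KLF12 span, 608 kb long, held most of the BICR31 peaks. BICR31 had 32 peaks and 39298 called bases there, HCC95 10 and 10382. Ishikawa had 2 and 3 peaks (2562 ± 897 bases, SD, n = 2), H358 4 and 5 (1432 ± 477) and H2009 3 and 2 (663 ± 151). In the deposited lists BICR31 thus lay above HCC95, and both lay above every library of the other lines, in peaks and in called bases. List length bears on this order: held to 23400 peaks by fold, BICR31 kept 8 peaks (8432 bases) beside the same 10 (10382 bases) in HCC95, and held to that length by −log10 q it kept 15 (22106 bases). In both settings H358, H2009 and Ishikawa had 1 to 4 peaks. So BICR31 led HCC95 in the deposited lists and at equal length by −log10 q, and lay below it at equal length by fold. HCC95 is the shortest list and was not cut at equal length. With the higher-valued 50% of each list, BICR31 kept 5 peaks (4132 bases) and HCC95 1 (292 bases). H358 then had 2 and 1 (587 and 763 bases), H2009 0 and 1 (0 and 305) and Ishikawa 1 and 0 (2093 and 0). In that setting BICR31 led HCC95, and HCC95 did not lie above the other lines.

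**Figure D3:**
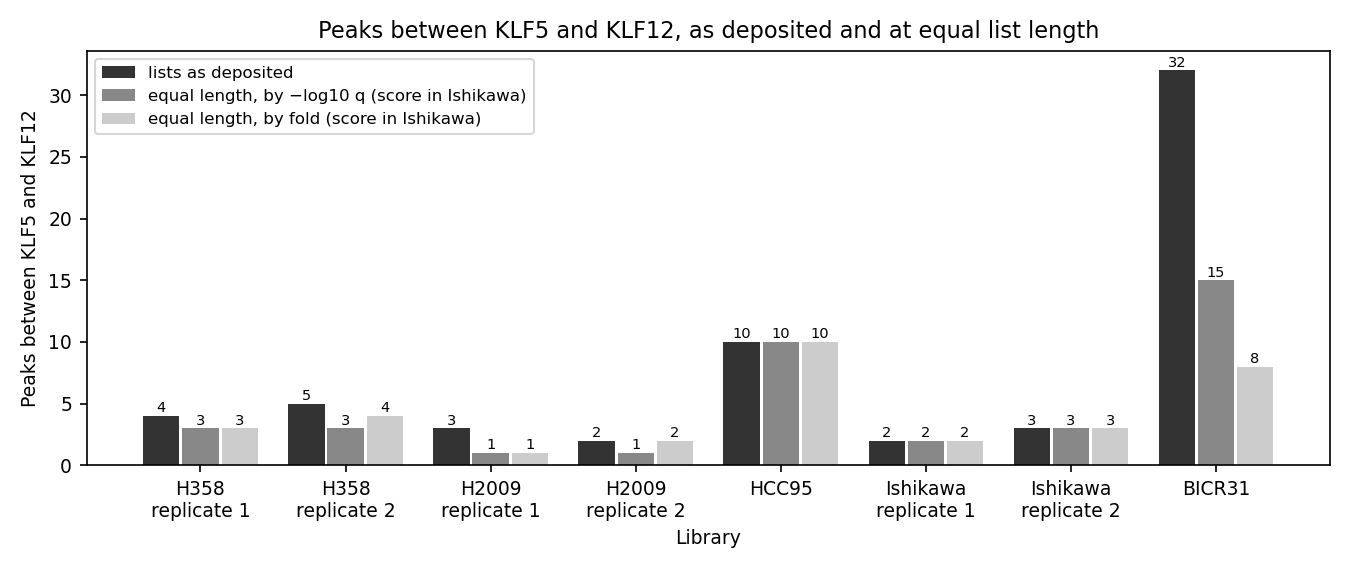
Bars give the number of peaks between KLF5 and KLF12 in each library, in the lists as deposited and with every list held to 23400 peaks by −log10 q or by fold (by score in Ishikawa). BICR31 falls from 32 to 15 and 8, while HCC95 stays at 10.

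The BICR31 peaks of the interval were spread along it rather than piled at one end. Neighbouring peaks lay a median of 13.2 kb apart, with gaps from 1.75 to 64.7 kb. Split into 3 stretches of equal length, the interval held 12, 13 and 7 BICR31 peaks, going away from KLF5. The middle stretch, 225 to 428 kb from the KLF5 start, had the widest and shallowest peaks, with a median width of 1742 bp and a median fold of 2.79. In the stretch next to KLF5 these medians were 689.5 bp and 3.42, and in the one next to KLF12 1371 bp and 3.58. As a group the 32 peaks were shallow for their list: the median peak stood at the 18.8 percentile of the list by fold and at the 53.3 percentile by width. Peaks over 1500 bp wide made up 11 of the 32 (34.4%), against 16.6% of the whole list. A −log10 q under 2, near the lowest of the list, was found in 11 (34.4%), against 24.7%. Width and fold went weakly in opposite directions over these 32 peaks (Spearman rho −0.30, Pearson r −0.30, a description over peaks of 1 library), and hardly at all over the list (Spearman rho 0.01).

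**Figure D4:**
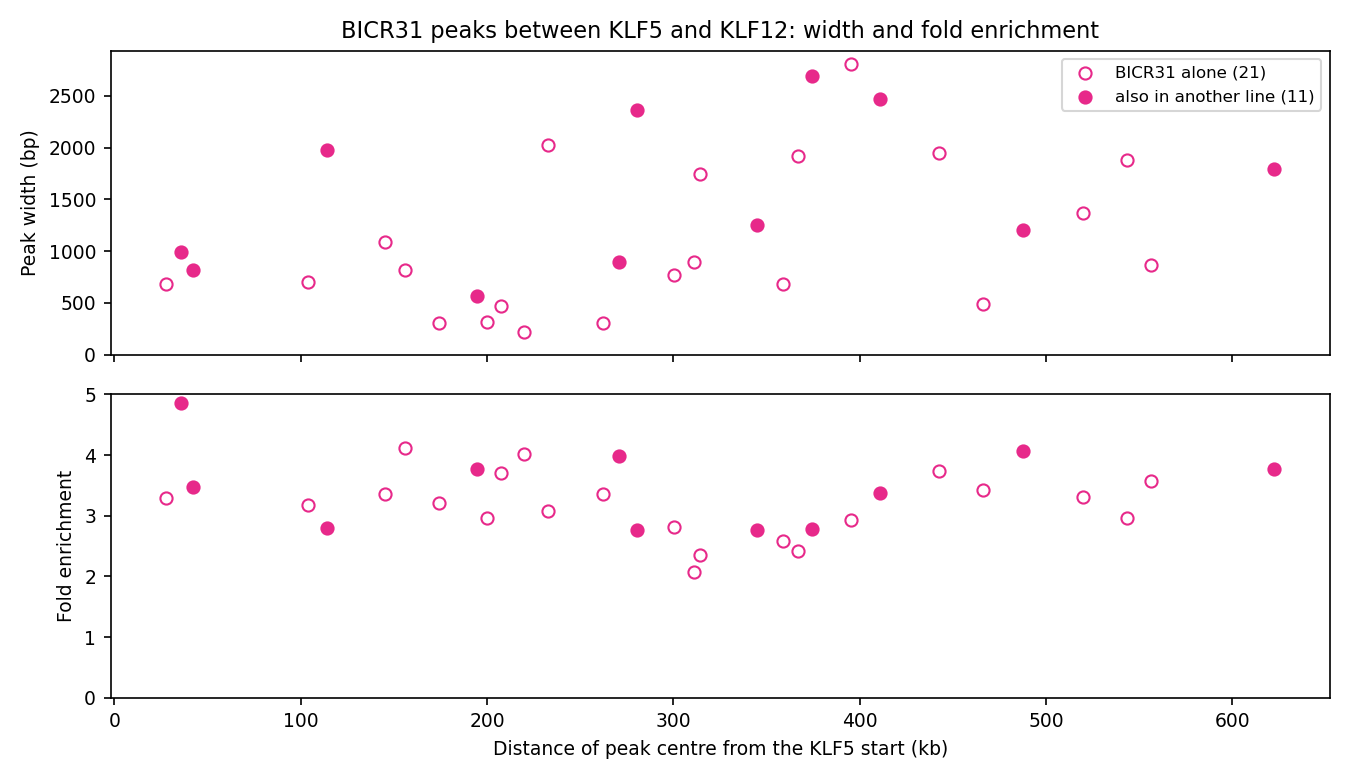
Each point is 1 of the 32 BICR31 peaks between KLF5 and KLF12, by distance from the KLF5 start in kb, with its width in bp (upper panel) and its fold enrichment (lower panel); filled points overlap a peak of another line, open points do not. The widest peaks lie between 279 and 412 kb, where folds run from 2.07 to 3.37.

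Of the 3 BICR31 regions next to KLF5, the middle one stood out by fold. The nearest, 73656367 to 73657048 at 27.4 to 28.0 kb from the KLF5 start, was in BICR31 alone (682 bp, fold 3.28, percentile 18.0). The region at 73663825 to 73665175, 34.8 to 36.2 kb from the KLF5 start, had the highest BICR31 fold between the genes, 4.87 over 995 bp, above 85.4% of the list. Both H358 libraries had a peak there, 250 bp at a fold of 5.81 and 763 bp at 6.22, and their summits lay 35.40 and 35.37 kb from the start, inside the BICR31 peak. It was the only region of the interval besides the one 410 kb from KLF5 that both H358 libraries shared. The next region, 73669856 to 73671323 at 40.9 to 42.3 kb, had a peak of 813 bp at a fold of 3.48 in BICR31, 696 bp at 3.34 in HCC95 and 261 bp at 4.48 in H358 replicate 1. H2009 and Ishikawa had no peak at either.

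At 83.2 to 85.3 kb, 73712223 to 73714315, the order was turned around. Both Ishikawa libraries had peaks there, 2093 bp at a score of 171 in replicate 1, and 575 and 693 bp at scores of 111 and 93.8 in replicate 2. H358 replicate 2 had a peak of 259 bp at a fold of 4.39. BICR31 had none between 42.3 and 103.8 kb. This was the only region of the interval that both libraries of a line had and BICR31 lacked.

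The region shared by the most lines in the interval was 73822706 to 73823808, 194 to 195 kb from KLF5. It had a peak in BICR31 (562 bp, fold 3.76), HCC95 (412 bp, 3.53), H2009 replicate 1 (241 bp, 3.96) and both Ishikawa libraries (1103 bp at a score of 97.4 and 659 bp at 112). No H358 library had one. It opened a run of 5 BICR31 peaks over 39.5 kb that ended with a 2021 bp peak found in BICR31 alone at 73860568 to 73862588 (fold 3.08).

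HCC95 shared 8 of the 32 BICR31 regions, more than any other library. Besides those at 41 and 194 kb, they began 113, 279, 344, 373, 410 and 622 kb from the KLF5 start. At 113 kb, 73742354 to 73744331, BICR31 called 1978 bp at a fold of 2.80 and HCC95 1147 bp at 2.87, with no peak in the other lines. At 279 kb, 73908073 to 73910436, BICR31 called 2364 bp at 2.77 and HCC95 1351 bp at 3.05, and H2009 replicate 2 had a 305 bp peak at 5.91. The pair at 344 kb, 73973042 to 73974290, was weak in both, at −log10 q values of 1.51 in BICR31 and 1.23 in HCC95. The other HCC95 peaks at shared regions were also under 2, from 1.37 to 1.66, except the one at 410 kb (3.24). By fold, the HCC95 peaks of the interval stood at a median percentile of 7.15 of their list. At 622 kb, 74250611 to 74252533 and next to the KLF12 span, BICR31 called 1790 bp at 3.76 and HCC95 439 bp at 3.08.

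The widest peaks of both squamous lines lay 394 to 413 kb from the KLF5 start. At 74038590 to 74041544, 410 to 413 kb from the start, HCC95 called 2955 bp, wider than 99.6% of its list, at a fold of 2.79, and BICR31 called 2467 bp at 3.37. Both H358 libraries had a peak inside it, 337 bp at 5.44 and 249 bp at 4.51, with summits 410.55 and 410.25 kb from the start. At 74002013 to 74005372, 373 to 376 kb, BICR31 called 2697 bp at 2.79, HCC95 1941 bp at 2.93 and H358 replicate 2 249 bp at 4.74. Between them lay the widest BICR31 peak of the locus, 2807 bp at 74022818 to 74025624 with a fold of 2.93, in a place where no other list had a peak. Widths in these broad lists are not comparable with those of the H358 lists, in which 249 bp is the narrowest peak that replicate 2 holds.

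Of the 32 BICR31 regions between the genes, 21 (65.6%) had no peak in any other line, against 37.0% of all BICR31 regions. Their peaks ran from 220 to 2807 bp (median 820) and from 2.07 to 4.12 in fold (median 3.22), and 10 of them had a −log10 q under 2. The 11 regions shared with another line had a median width of 1249 bp and a median fold of 3.48, and 1 had a −log10 q under 2. These shares under 2, 47.6% and 9.09%, were near those of the whole list, 42.0% alone and 14.6% shared. The regions that BICR31 had alone were thus narrower and nearer to the threshold, as they were over the whole list, where medians were 629 bp and 3.57 against 1053 bp and 4.03. The 5 widest of them were the peaks at 74022818 and 73860568 given above, 73995054 to 73996968 (1915 bp, fold 2.42), 74171731 to 74173611 (1881 bp, 2.97) and 74070815 to 74072762 (1948 bp, 3.74). The last, 442 kb from the KLF5 start, had the highest −log10 q of the BICR31 peaks in the interval, 6.81. The highest by fold were 73784325 to 73785144 (4.12 over 820 bp) and 73848735 to 73848954 (4.01 over 220 bp). Close to these in fold were 2 shared regions, 74116246 to 74117451 (4.07 over 1206 bp, with a 247 bp peak in H358 replicate 1) and 73899407 to 73900480 (3.98 over 891 bp, with a 241 bp peak in H2009 replicate 1).

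Across the other lines, the order at the gene was not the order in the interval 3′ of it. HCC95 had a peak at 8 of the 32 BICR31 regions and none at KLF5. Ishikawa, with the most called bases at KLF5, had a peak at 1 of the 32 in each library. H358 replicate 1, with 2 small peaks at KLF5, had 4 of the 32, and replicate 2, with none, had 3. H2009 had 2 and 1 of the 32 and no peak at KLF5. BICR31 had a peak at the gene as well as the 32. With 5 lines and 3 list forms these are values side by side, with no test.

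**Figure D5:**
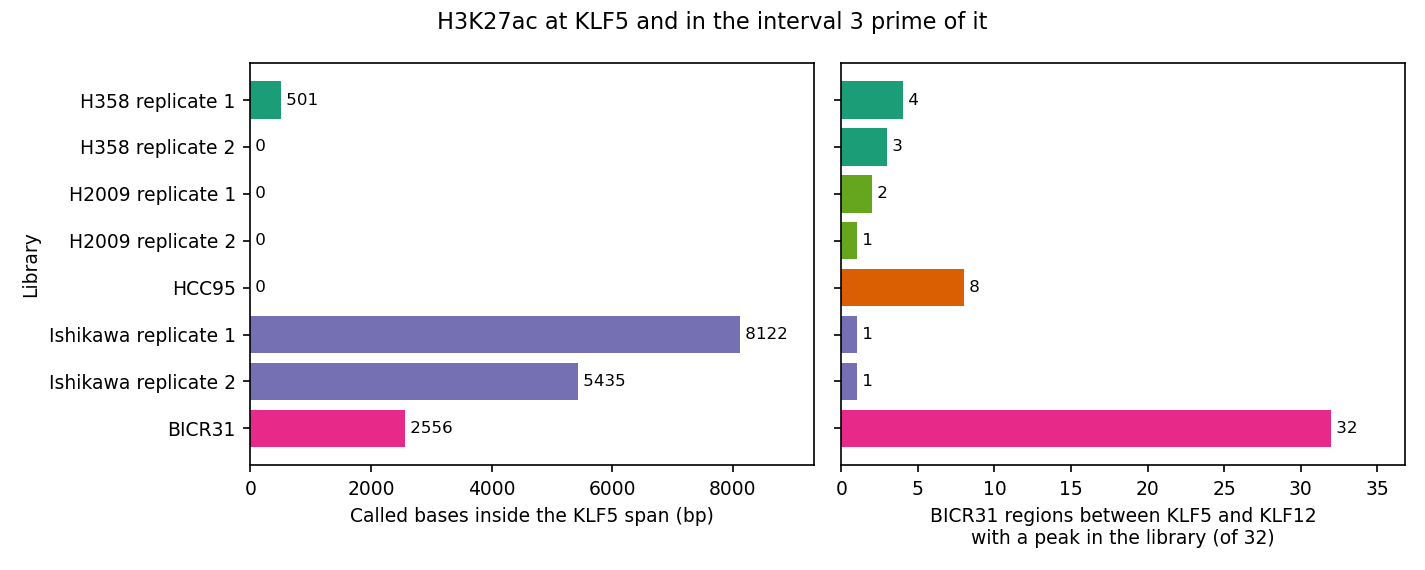
Bars give, for each library, the called bases inside the KLF5 span (left, in bp) and the number of the 32 BICR31 regions between KLF5 and KLF12 that have a peak in it (right; BICR31 is 32 by definition). Ishikawa leads at the gene with 8122 and 5435 bp and has 1 of the 32 regions, while HCC95 has 0 bp at the gene and 8 regions.

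BICR31 regions of the interval were shared with other lists less than BICR31 regions elsewhere. HCC95 had a peak at 25% of the 32 (95% Wilson interval 13.3 to 42.1), against 41.1% of the 41842 BICR31 regions of the genome. The H358 libraries had 12.5% (4.97 to 28.1) and 9.38% (3.24 to 24.2), against 37.6% in both. For H2009 the shares were 6.25% (1.73 to 20.1) and 3.13% (0.554 to 15.7), against 38.5% in both libraries. For Ishikawa they were 3.13% in both (0.554 to 15.7), against 36.1% and 36.0%. In all 7 libraries the share was below that of the genome. The genome share was not matched to the interval, which holds 0 protein-coding genes. Its BICR31 peaks had a median fold of 3.30, against 3.82 over the list. Whether either bears on the shares was not tested. The intervals cover counting error only and treat neighbouring regions of 1 library as independent, which they are not, so they are no test of this difference.

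Joined into broad clusters, the BICR31 peaks between the genes ranked from near the top of their list to near its bottom. Clusters were peaks within 12.5 kb of each other, ranked by the sum of width times fold and those past slope 1 of the ranked, scaled curve were kept. BICR31 had 3 kept clusters of 32 in the locus (9.38%), near the 8.51% of all its clusters. All 3 were among the 17 between the genes, whose ranks ran from the top 4.37% to 94.1% of the list (median 19.9%). The highest, 73987495 to 74004709, had 3 peaks over 17215 bp and rank 1300 of 29736, where 2532 were kept. The others were 73823092 to 73862588 with 5 peaks over 39497 bp (rank 2058) and 73891077 to 73910436 with 3 peaks over 19360 bp (rank 2422). The cluster next to KLF5, 73656367 to 73671323 with 3 peaks, came at rank 3182 and was not kept. With 5 kb joining, or with lists of equal length by fold, 0 clusters were kept in the locus, and 1 was kept at equal length by −log10 q.

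Other lines had at most 1 kept cluster in the locus. In HCC95 it was the single wide peak 410 kb from KLF5, rank 1317 of 19855 with 1453 kept. In Ishikawa it was the peak near KLF12 described below. The Ishikawa peaks inside KLF5 formed clusters at rank 2395 of 18937 and 1844 of 18626, short of the 982 and 1562 kept. H358 had 0 of 11 locus clusters kept in each library, and H2009 0 of 7 and 0 of 3. Over all clusters, 1054 of 18468 and 1341 of 18001 were kept in H358, and 969 of 18800 and 1178 of 18174 in H2009. HCC95 had 18 clusters in the locus and Ishikawa 7 and 8. With so few clusters, a count of 0 or 1 kept says little about the locus.

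Of the 3 regions with a peak in all 5 lines, 2 lay on the 5′ side of KLF5 and the other beyond the KLF12 span. The region at 73300237 to 73303230, 326 to 329 kb upstream, had a peak in all 8 lists. The peaks of the H2009 libraries in it, 73301517 to 73301761 and 73302206 to 73302549, did not overlap and were joined by wider peaks of other lists. In GRCh38.p14 the opposed starts of MZT1, a part of the gamma-tubulin ring complex, and BORA, an activator of Aurora kinase A, lie 327 kb upstream of KLF5 start 1. The region at 73355098 to 73357232, 272 to 274 kb upstream, had a peak in 7 lists and lacked one in H2009 replicate 2. The opposed starts of DIS3, a catalytic subunit of the RNA exosome, and PIBF1, a centrosome protein, lie 273 kb upstream in GRCh38.p14. Called bases at the first were 2994 and 2089 in Ishikawa, 1645 in BICR31, 1193 in HCC95, 907 and 975 in H358 and 245 and 344 in H2009. The BICR31 peaks of these regions had folds of 4.29 and 4.74 (percentiles 70.8 and 82.8 of its list), above the median of its interval peaks (18.8) and below the highest of them (85.4).

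Nearer to KLF5 the 5′ side differed between lines. A region at 73533108 to 73535737, 93.3 to 95.9 kb upstream, had peaks in both Ishikawa libraries (scores 122, and 203 and 81.3), in BICR31 (1204 bp, fold 3.55), HCC95 (960 bp, 3.61) and H358 replicate 2 (406 bp, 4.96). Ishikawa alone, in both libraries, had a peak at 73527631 to 73528621, 100 to 101 kb upstream (scores 76.8 and 61.8). HCC95 and BICR31 alone had one at 73573886 to 73574719, 54.3 to 55.1 kb upstream (folds 3.57 and 4.19). The peak nearest to the start on this side in BICR31 was 73598579 to 73600029, 29.0 kb upstream, in that line alone (1451 bp, 3.52). In all, BICR31 had 8 peaks on the 5′ side, HCC95 4, H358 4 in each library, Ishikawa 5 and 6 and H2009 2 and 1.

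Inside the KLF12 span given above, BICR31 had the most called bases, and a common region lay beyond it. Per kb of the span they were 11.7 in BICR31 and at most 1.57 in the other lists. As a share of the called bases of each list they were 0.00892% in BICR31 and at most 0.00331% in the others. BICR31 had 29.9 per kb over the whole locus, 15.1 on the 5′ side of KLF5 and 7.79 beyond the span. Its 5 peaks in the span had −log10 q values from 1.27 to 2.69, with only the highest above 2. The 9 regions inside the span each had a peak in 1 list only, 5 of them in BICR31. Over the locus 64.2% of regions had a peak in 1 list only and 46.3% in BICR31 alone, and over the genome 47.7% and 21.9%. The widest was 74289586 to 74290859 in BICR31 (1274 bp, fold 3.29, −log10 q 1.91). The widest of the other lines were 486 bp in Ishikawa replicate 2, 389 bp in H358 replicate 1 and 292 bp in HCC95, while H2009 had none. No list had a peak within 5 kb of the end of the span at 74570000.

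The common region lay at 74707349 to 74710978, 1078 to 1082 kb from the KLF5 start, the distance of KLF12 starts 2 and 3 in GRCh38.p14 (1079 kb). RefSeq gives KLF12 a length of 620 kb in that build, longer than the 310 kb of the span used here. The region had a peak in 7 lists and lacked one in H2009 replicate 2. Ishikawa called 3630 and 3475 bp at scores of 410 and 511, higher than 93.3% and 95.8% of its lists and the highest of the locus in both. BICR31 called 1758 bp at a fold of 4.16, HCC95 1520 bp at 3.56 and H2009 replicate 1 244 bp at 4.42. H358 had 3 peaks there in replicate 1 (folds 4.01 to 4.98) and 2 in replicate 2 (4.36 and 5.16). Every line, including those with no peak at KLF5, thus had a peak near this start in at least 1 library, and in Ishikawa it was higher in score than the peak at KLF5.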

How the data were processed

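The deposited peak lists of 8 libraries were used as given. Alignment used BWA and hg19, per the submitters' processing notes. The aligner's version, peak caller, control and any pooling were not given in the sources used here, and each list was taken as 1 library's own. The deposited H358 and H2009 lists have the narrowPeak form, HCC95 and BICR31 the broadPeak form and Ishikawa 5 columns. The authors' values per peak are a fold enrichment ratio, −log10 p and −log10 q, a score, and in narrowPeak lists an offset of the summit, an other kind of deposited value; Ishikawa has a deposited score alone. Such values rank peaks only within a list.

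Peaks on chromosomes 1 to 22 and X were kept (224362 of 224893). Overlapping peaks (1 bp) were merged, and intervals computed with Python 3.11.15, numpy 2.4.6 and scipy 1.17.1. Functions were tested on simulated data. The members, windows and naming rule were chosen with earlier results of these data known. Named are the regions within 5 kb of either gene's start and those of all 8 lists. Also named are, between the genes, the 10 widest and 5 highest-fold BICR31 peaks, those shared with HCC95 and those that both libraries of a line have without BICR31, and elsewhere the widest per line. Other regions named near KLF5 and those at neighbouring genes' starts were chosen after their values were seen. No annotation of hg19 was at hand, so marker genes of the lines were not checked. Both genes matched the RefSeq promoter table.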

Additional observations from a re-analysis of the deposited data

How the results depend on the processing

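Of 42 alternatives run on 6 results, 21 kept the direction and the side of the threshold or stayed within 1.5 times the count, 17 moved further, 4 lost the threshold and 0 reversed. With the higher-valued 50% of each list the locus held 20 regions, 9 of them in BICR31 alone, and 5 BICR31 regions between the genes, 2 lists with a peak at the KLF5 start and 0 kept BICR31 clusters. With lists of equal length by fold these were 38, 8, 8, 2 and 0, and by −log10 q 40, 11, 15, 3 and 1. The ranking by −log10 q was chosen after seeing the data, and the cause of the differences was not tested. Within 5 kb of the KLF5 start, the peaks of BICR31 and H358 replicate 1 were lost by fold and those of Ishikawa kept. No list had a peak (0 of 8) within 2 kb of that start, and BICR31 kept 0 clusters with 5 kb joining. Without replicate 1 or 2 of each line there were 62 to 64 regions, 31 to 34 in BICR31 alone, and 2 to 3 of 5 lists with a peak at the KLF5 start. The agreement of replicates was 0.123 in the higher-valued 50% (exact permutation p = 0.0881), 0.0440 to 0.286 without 1 pair (exact permutation p = 0.0222 to 0.222, smallest possible 0.0222) and 0.0340 in the narrowPeak lists alone (exact permutation p = 0.333, the smallest possible). No paired analysis was possible because replicate numbers exist in 3 lines only, no comparison between lines has a test, and the labels do not tie equal numbers together. Depth is unknown, so a missing peak says only that none was called at the length and threshold of that list.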

Other observations

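Besides the 2 H2009 lists described above, with 7 and 3 peaks in the locus, there are 4 shorter H2009 lists, whose titles read Empty, Control, e3KRAB1 and e3KRAB2. The labels say no more of how these cells differ, and no comparison was made with them. They hold 1960, 3250, 2315 and 1375 peaks, with 0 in the locus in each.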
